A study of Mus musculus with 18 samples.

Results

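Immunoglobulin gene segments were described across 18 libraries of cells sorted from the mouse mammary gland. The set holds every gene of the annotation classes IG_C, IG_D, IG_J and IG_V (constant, diversity, joining and variable segments) with at least 1 count in any library. That rule kept 188 of the 264 such genes listed in the tables, which hold 52636 genes in all. The members are 10 of 13 constant genes, 4 of 14 joining segments, 174 of 218 variable segments and 0 of 19 diversity segments.

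RNA came from 3 genotypes and 2 sorting gates, with 3 biological replicates in each of the 6 groups. Mice were wild type (WT) or carried the D542G or the Y541S mutation of Esr1, which encodes the estrogen receptor ERα. The gates were mature luminal (ML), the hormone-sensing epithelium of the gland, and a second population, named N in the titles of the libraries; the source label calls the cells of both gates mature luminal. All mice were raised to 6 months of age, carried pellets of estradiol (E2) and progesterone (P4), and were dosed by mouth with giredestrant, an estrogen receptor antagonist, at 30 mg/kg daily for 4 days, so no group lacks the hormones or the antagonist. The labels give no strain and do not say whether an ML and an N library with the same number share a mouse.

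Libraries held 34797778 to 49507144 gene counts. The epithelial markers set the gates apart: all 5 basal markers were called higher in N, and 5 of 8 luminal markers were called lower. Some libraries stood between the gates. WT N 3 held 4582 CPM (read counts scaled to a common library depth) of the luminal keratin Krt18, against 194 to 1578 CPM in the other N libraries. WT ML 1 and WT ML 2 held 3860 and 2924 CPM of the basal keratin Krt14, against 50.1 to 839 CPM in the other ML libraries. Counts of gate differences without these libraries are given below beside the result.

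B lymphocytes assemble an antibody heavy chain from V, D and J segments and a light chain from V and J segments of the kappa or the lambda locus. The joined segments are then transcribed with a constant gene, which sets the class. Naive B cells make IgM and IgD from Ighm and Ighd, and class switching replaces these with the IgG, IgA or IgE genes farther along the locus. Plasma cells transcribe immunoglobulin at very high levels, and in the mammary gland they lie in the stroma beside the ducts and alveoli. Luminal cells make no antibody of their own but carry polymeric antibody into milk with the receptor Pigr.

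The heavy-chain members lie on the minus strand of GRCm38 at chr12:113254830-116000461, the kappa members on both strands at chr6:67555497-70704177 and the lambda members on the minus strand at chr16:19194999-19260859. A V segment consists of a short leader exon and the V exon, which ends in the stretch that is joined to D or J. The V exons of Ighv11-2 (its last 300 bases, chr12:114048241-114048540, minus strand) and Igkv14-126 (chr6:67896345-67896642, plus strand) (whole) are shown. This heavy and kappa pair was chosen because both reached 10 counts in the same 4 ML libraries and 1 N library. Capitals run from the conserved cysteine codon to the end of the segment, the germline start of CDR3, the loop that varies most between antibodies. Sequences are from GENCODE release M21, build GRCm38.
Ighv11-2: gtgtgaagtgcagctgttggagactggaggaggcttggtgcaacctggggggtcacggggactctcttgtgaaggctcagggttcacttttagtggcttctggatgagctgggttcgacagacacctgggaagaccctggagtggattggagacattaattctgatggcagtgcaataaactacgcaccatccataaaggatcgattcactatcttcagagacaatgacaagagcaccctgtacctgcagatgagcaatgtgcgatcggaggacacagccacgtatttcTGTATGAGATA
Igkv14-126: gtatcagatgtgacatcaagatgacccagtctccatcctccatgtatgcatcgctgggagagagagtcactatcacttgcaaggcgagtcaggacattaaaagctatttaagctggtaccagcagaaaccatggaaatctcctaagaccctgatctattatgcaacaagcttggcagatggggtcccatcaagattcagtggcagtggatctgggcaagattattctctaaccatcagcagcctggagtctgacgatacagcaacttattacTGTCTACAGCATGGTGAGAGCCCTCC

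The last 75 bases of the V exon are shown for some of the segments that led the heavy or kappa V counts of a library. Ighv1-55 (chr12:115208095-115208169) and Igkv4-53 (chr6:69648824-69648898) led in Y541S N 1, Ighv2-5 (chr12:113685482-113685556) and Igkv12-46 (chr6:69764523-69764597) in WT N 1, and Igkv4-57-1 (chr6:69544359-69544433) in Y541S ML 2, all on the minus strand. Capitals mark the same stretch.
Ighv1-55: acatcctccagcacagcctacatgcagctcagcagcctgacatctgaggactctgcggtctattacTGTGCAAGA
Igkv4-53: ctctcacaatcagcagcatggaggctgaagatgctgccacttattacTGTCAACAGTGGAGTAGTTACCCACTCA
Ighv2-5: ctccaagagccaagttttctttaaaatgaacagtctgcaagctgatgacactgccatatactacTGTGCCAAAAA
Igkv12-46: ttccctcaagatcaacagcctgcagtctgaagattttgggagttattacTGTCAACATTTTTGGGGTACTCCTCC
Igkv4-57-1: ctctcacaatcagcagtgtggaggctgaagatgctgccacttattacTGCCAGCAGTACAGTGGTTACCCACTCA

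Reads can be shared between near-identical V segments. The V exon of Ighv11-2 was 98.7% identical to that of Ighv11-1 and that of Ighv2-5 was 97.7% identical to Ighv2-4, while the other V exons shown were 90.9 to 95.1% identical to their nearest relative among 214 V segments. The nearest relatives held few counts (393 for Ighv11-1 and 1 for Ighv2-4), except Igkv14-111, the relative of Igkv14-126, with 10160. Somatic mutation of V segments also moves reads away from the germline sequence, and how the counting treated this is not given in the sources used here.

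The 4 IgG subclasses are told apart most clearly by the hinge, the short flexible exon between the arms and the stem of the antibody. The hinge exons of Ighg1 (chr12:113329844-113329882), Ighg2b (chr12:113307261-113307326), Ighg2c (chr12:113288263-113288325) and Ighg3 (chr12:113360529-113360576) follow, with cysteine codons in capitals.
Ighg1: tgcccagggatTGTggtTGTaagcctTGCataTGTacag
Ighg2b: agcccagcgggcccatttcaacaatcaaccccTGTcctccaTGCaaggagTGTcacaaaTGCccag
Ighg2c: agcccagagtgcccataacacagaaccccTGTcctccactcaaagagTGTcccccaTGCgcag
Ighg3: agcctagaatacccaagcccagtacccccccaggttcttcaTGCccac

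The hinges of Ighg2b and Ighg2c were 77.3% identical and the other pairs 39.6 to 55.6%. The exon after the hinge was 94.2% identical between Ighg2b and Ighg2c, against 73.9 to 87.3% for the other pairs, so counts are most exposed to sharing between these 2 genes.

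Immunoglobulin counts were present in all 18 libraries, but at levels that ranged from 0.201 to 12068 CPM, summed over the 188 members. The 9 ML libraries held 98.9% of the 971607 counts, and WT ML 1, WT ML 2 and Y541S ML 2 alone held 92.5%. In Y541S ML 2 the members took 1.18% of all counts of the library.

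The summed level was 3440, 7479 and 12.5 CPM in WT ML 1 to 3. It was 835, 413 and 171 CPM in D542G ML 1 to 3 and 0.475, 12068 and 38.0 CPM in Y541S ML 1 to 3. The replicates of WT ML and of Y541S ML thus spanned more than the whole N gate, and the D542G ML libraries lay closest together.

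In the N gate the sum was 70.3, 9.15 and 5.11 CPM in WT, 26.5, 6.48 and 14.0 CPM in D542G, and 110, 0.201 and 7.75 CPM in Y541S. Of the ML libraries 6 lay above the highest N library, and 3 (WT ML 3, Y541S ML 1 and Y541S ML 3) did not, so the gates overlapped. Medians were 413 CPM in ML and 9.15 CPM in N. Fewer plasma cells and less immunoglobulin RNA per cell cannot be told apart in sorted bulk samples.

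The group means were 3644 ± 3737 CPM for WT ML, 473 ± 336 for D542G ML and 4035 ± 6956 for Y541S ML (SD, n = 3 each). In N they were 28.2 ± 36.5, 15.7 ± 10.1 and 39.3 ± 61.3 CPM. The SD was above the mean in 4 of the 6 groups, and without Y541S ML 2 the Y541S ML mean was 19.2 CPM.

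**Figure D1:**
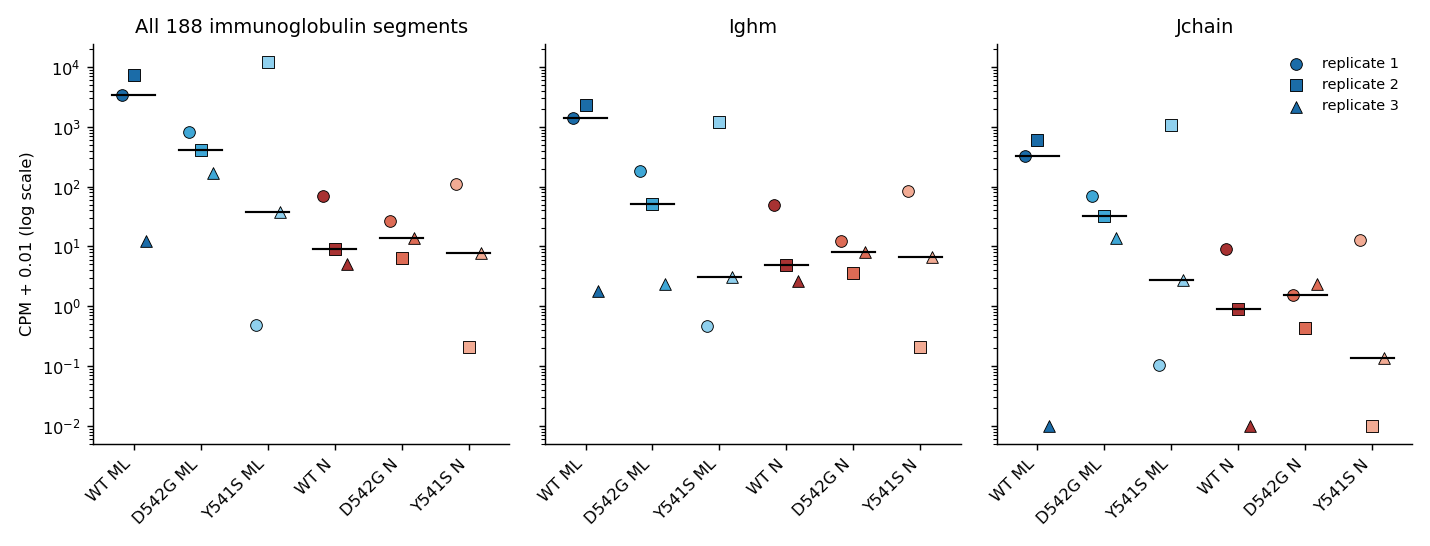
Levels of all immunoglobulin members together, of Ighm and of Jchain in each library, as CPM + 0.01 on a log axis; each point is a library, marker shapes are replicate numbers and bars are group medians. WT ML 1, WT ML 2 and Y541S ML 2 stand highest in all 3 panels (3440 to 12068 CPM for the sum), and Y541S ML 1 (0.475 CPM) lies among the N libraries.

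Few members were seen widely. Counts in 1 library only were found for 46 of the 188 members, 125 had counts in ML libraries only, 2 in N libraries only and 61 in both. The number of members with a count was 119 in Y541S ML 2, 109 in WT ML 2 and 89 in WT ML 1, and 2 to 57 in the other ML libraries. N libraries held 1 to 29. Ighm was the only member with counts in all 18 libraries.

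For the 76 genes with no count, overlap with other genes was listed. Igkc, the only kappa constant gene, and the 5 Igkj segments lie wholly inside the annotated span of the predicted gene Gm30211. Iglc1, Iglc3 and the joining segments Iglj1, Iglj3 and Iglj3p lie inside 2010309G21Rik. All exon bases of 13 of the 76 lie in other genes' spans, against 0 of the 188 members, and 63 of the 76 do not lie wholly in such spans. How reads in overlapping genes were counted is not given in the submitters' notes, so a count of 0 there says nothing about expression. The diversity segments have only 10 to 29 bases.

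The 2 genes that span these segments were high in the libraries rich in immunoglobulin. Gm30211 stood at 208, 423 and 0.31 CPM in WT ML 1 to 3. The D542G ML libraries held 54.0, 16.3 and 8.68 CPM of it, the Y541S ML libraries 0, 655 and 4.90 CPM, and N libraries 0 to 3.71 CPM. It was called lower in N (log2 fold change −6.76 ± 1.56, adjusted p = 0.00557, edgeR), as was 2010309G21Rik (adjusted p = 0.00210), which reached 28.1 CPM in WT ML 2 and at most 0.101 CPM in N. Both lost the call without the 3 ML libraries richest in immunoglobulin (adjusted p = 0.446 and 0.9999) and without WT ML 1, WT ML 2 and WT N 3 (0.163 and 1), and Gm30211 also in the fit with the replicate number as a block (0.0670). Their own transcripts and those of the segments inside them cannot be told apart here.

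Heavy-chain constant genes gave the largest share of the counts, 498462 of 971607. Ighm (chr12:113418558-113422730, minus strand), the constant gene of IgM, had 58064, 83080 and 71 counts in WT ML 1 to 3. D542G ML 1 to 3 held 7254, 2351 and 115 and Y541S ML 1 to 3 held 19, 48913 and 135. In N it had 1936, 187 and 108 counts in WT, 565, 180 and 350 in D542G, and 3688, 8 and 268 in Y541S. Ighm alone was thus found in every library of both gates, and the ranges of the gates overlapped.

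Ighg2c, the IgG2 gene of the reference genome and one of the complement-fixing subclasses, had 11348, 38216 and 0 counts in WT ML. All 3 D542G ML libraries held it (5481, 3148 and 2963 counts), with 0, 26589 and 501 in Y541S ML, and 0 in all 9 N libraries. A count of 0 allows up to 0.0594 to 0.0776 CPM in an N library (3 counts, counting error only). The ML mean of 252 CPM was at least 3529-fold higher than that floor, taken per library.

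Ighg2b, the neighbouring IgG2 gene, had 4437, 24577 and 2 counts in WT ML, 3809, 2952 and 2461 in D542G ML, and 0, 28033 and 161 in Y541S ML. In N only WT N 1 had any, with 13. The 2 IgG2 genes were thus the most evenly spread switched classes, each above the highest N library in 7 of 9 ML libraries.

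Ighg1, the IgG subclass most tied to type 2 responses, had 1631, 19804 and 311 counts in WT ML, 931, 2766 and 0 in D542G ML, and 0, 60957 and 0 in Y541S ML. WT N 2 was the only N library with any, at 9. Ighg1 was the leading class of WT ML 3, where it made 78.3% of 397 heavy constant counts (95% Wilson interval 74.0 to 82.1%).

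Ighg3, the IgG subclass known for responses to polysaccharides, was more restricted, with 1776, 1795 and 0 counts in WT ML, 0, 5 and 0 in D542G ML, and 0, 25046 and 0 in Y541S ML. Y541S N 1 held 52. Igha, the constant gene of the mucosal class IgA, had 1645, 50 and 0 counts in WT ML, 0, 0 and 27 in D542G ML, and 0, 18849 and 0 in Y541S ML, with 1 and 10 in WT N 1 and 2. Ighe, of IgE, had 527 counts, all in Y541S ML 2.

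Ighd, which naive B cells make beside Ighm by splicing, had a total of 287 counts. ML libraries had 0 to 66 and N libraries 0 to 42. D542G N 2 and 3 held 41 and 42 of them, beside 180 and 350 counts of Ighm, while WT ML 1 and 2 held 0 beside 58064 and 83080. Levels of Ighd overlapped between the gates, and it was not called (log2 fold change of N against ML −0.91 ± 1.19 SE, adjusted p = 0.619, edgeR).

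The class make-up differed between the gates in every library that could be read. IgM took 2.05 to 73.6% of heavy constant counts in the 8 ML libraries with at least 100 such counts (median 22.2%). In the 8 N libraries with as many it took 81.4 to 100% (median 97.9%), so the ranges did not overlap. The libraries under that cut were Y541S ML 1 (19 counts) and Y541S N 2 (8 counts), and all of these counts were Ighm. Without WT ML 1, WT ML 2 and WT N 3 the highest ML share was 41.4% and the lowest N share still 81.4%. Switched classes (IgG, IgA and IgE) made 290798 of 490976 counts in ML and 85 of 7486 in N. Most N libraries had few counts: their totals ran from 108 to 3740, against 397 to 208980 in ML. Heavy V counts beside them were also few in N, at 0 (WT N 3) to 9.52% (Y541S N 1) of the heavy constant counts. In the 8 ML libraries they were 8.56 (WT ML 3) to 17.4% (D542G ML 3). How much of the Ighm in N came from rearranged genes was not tested.

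Within ML the classes differed from library to library. D542G ML 3 held 2.05% IgM, with 52.9% IgG2c (51.6 to 54.2%) and 43.9% IgG2b (42.6 to 45.2%). D542G ML 1 held 41.4% IgM and 31.3% IgG2c, and D542G ML 2 held 20.9% IgM and 28.0% IgG2c. WT ML 1 and WT ML 2 held the most IgM, at 73.6% (73.3 to 73.9%) and 49.6% (49.4 to 49.8%).

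Y541S ML 2 was the most mixed library, with 29.2% IgG1 (29.0 to 29.4%), 23.4% IgM, 13.4% IgG2b, 12.7% IgG2c, 12.0% IgG3, 9.02% IgA and 0.252% IgE. Y541S ML 3 held 61.9% IgG2c (58.5 to 65.2%) of 809 counts. Intervals cover counting error only, since reads of amplified cDNA are not independent molecules.

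Because the constant genes differ in length, from 1326 exon bases for Ighg2c to 2678 for Ighg2b, shares were also taken per kilobase. IgG2c then led in D542G ML 1 (42.3% against 39.3% for IgM), and IgM led in Y541S ML 2 (26.6% against 24.2% for IgG1). The leading class was the same by both measures in the 6 other ML libraries.

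**Figure D2:**
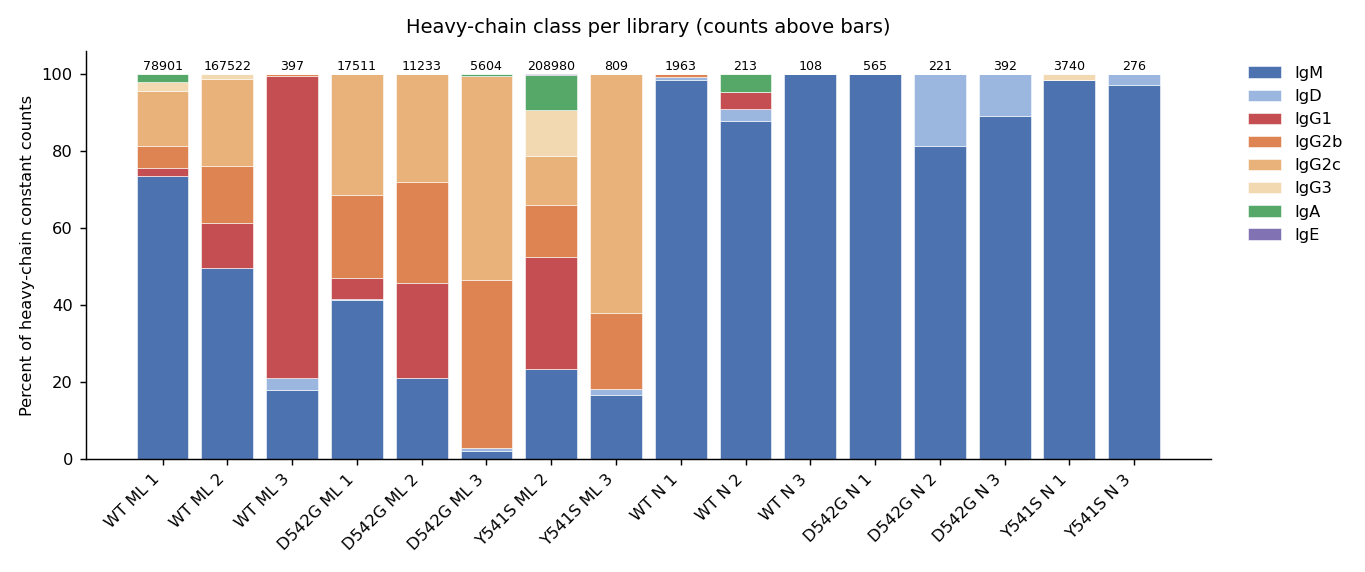
Percent of heavy-chain constant counts taken by each class in the 16 libraries with at least 100 such counts; the number of counts is written above each bar. N libraries are 81.4 to 100% IgM, while ML libraries are 2.05 to 73.6% IgM with IgG1, IgG2b and IgG2c making most of the rest.

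Light chains came mainly from kappa. Kappa V segments held 365914 counts and lambda V segments 12566, but the kappa constant gene Igkc is at 0 in every library, so only V segments were compared. Of the 3 lambda V segments listed, 1 had no count in any library. The lambda shares therefore rest on the other 2 and may be too low. Lambda took 0.509% (0.453 to 0.573%), 1.58% (1.497 to 1.67%) and no readable share in WT ML 1 to 3, which held 54410, 77538 and 58 light V counts. In D542G ML it took 0.247, 0.0999 and 0.639%, and in Y541S ML 2 and 3 it took 4.93% (4.84 to 5.02%) and 0.282%. By these V counts the lambda share was highest in Y541S ML 2, with an interval above those of the other ML libraries with a share.

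Lambda counts came from few genes. Iglv2 had 12105 counts, of which Y541S ML 2 held 10866 and WT ML 2 held 1212, and Iglv3 had 461, of which WT ML 1 held 276. Iglc2 (chr16:19198396-19200351), the lambda constant gene with most counts, had 715, 3170 and 0 in WT ML, 152, 54 and 49 in D542G ML, and 0, 22008 and 22 in Y541S ML. N libraries held 0 to 39. Iglc4 had 6 counts, in WT ML 2 and Y541S ML 2. In N, 5 of 9 libraries had 100 light V counts or more, and lambda V segments gave 0 to 4 counts there (0 of 750 in WT N 1, which allows up to 0.400%). D542G N 2 had 9 lambda counts of 86 light V counts, all in Iglv3.

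V segment use was different in nearly every library. Of the 174 V members, 58 reached 10 counts in no ML library, 44 in 1, 45 in 2, 17 in 3, 6 in 4 and 4 in 5, and 0 in more. The 4 found in 5 ML libraries were Igkv10-96, Ighv1-55, Iglv3 and Ighv1-26. WT ML 1 and WT ML 2 shared 24 V segments of at least 10 counts, 42.9% of the 56 in the first and 54.5% of the 44 in the second. D542G ML 1 and D542G ML 2 shared 7, or 20.6% of 34 and 35.0% of 20.

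The leading heavy V segment was another one in each of the 7 ML libraries with at least 100 heavy V counts. It was Ighv11-2 in WT ML 1 (1235 of 8126 counts) and Ighv1-76 in WT ML 2 (6128 of 18929). It was Ighv9-3 in D542G ML 1 (537 of 2491), Ighv1-15 in D542G ML 2 (454 of 1674) and Ighv10-1 in D542G ML 3 (416 of 977). Ighv5-17 led in Y541S ML 2 (4505 of 27985) and Ighv3-8 in Y541S ML 3 (51 of 131).

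Heavy V counts were spread over unequal numbers of segments. The effective number (the exponential of Shannon's entropy, equal to the number of equally used segments that would give the same spread) was 17.7 in WT ML 1, 10.9 in WT ML 2 and 15.2 in Y541S ML 2. It was 13.9, 7.94 and 3.35 in D542G ML 1 to 3 and 4.39 in Y541S ML 3. Effective numbers depend on depth and were not compared by a test.

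By the same effective number kappa V segments were more concentrated than heavy ones in each of these libraries. The gap was small in WT ML 2 (10.2 against 10.9) and D542G ML 2 (7.68 against 7.94). By the share of the leading segment, heavy V counts were the more concentrated in WT ML 2 (32.4 against 21.4%). The same held in D542G ML 1 (21.6 against 19.2%) and D542G ML 2 (27.1 against 26.1%). Igkv4-57-1 (its end is printed above) had 82006 of the 212205 kappa V counts of Y541S ML 2, a share of 38.6%, and otherwise only 1032 counts, in WT ML 1. Igkv10-96 had 1137 of 1556 counts in D542G ML 3, and Igkv3-12 had 500 of 708 in Y541S ML 3. Igkv14-126 led in WT ML 1 (11845 of 54133) and D542G ML 2 (1568 of 6001), Igkv6-20 in WT ML 2 (16306 of 76311) and Igkv8-30 in D542G ML 1 (2398 of 12518).

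By mean CPM over the 9 ML libraries the 5 highest heavy V segments were Ighv1-76 (19.4 CPM), Ighv11-2 (18.7), Ighv5-17 (12.5), Ighv3-8 (9.38) and Ighv1-53 (9.28). The 5 highest kappa segments were Igkv4-57-1 (229.6 CPM), Igkv15-103 (83.1), Igkv14-126 (83.0), Igkv1-135 (78.6) and Igkv1-110 (60.4). Igkv15-103 and Ighv5-17 reached 10 counts in 1 ML library each, so these means rest on Y541S ML 2.

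Ighv11-2 and Igkv14-126 are known as the pair used by B-1a cells, an innate-like lineage that makes natural IgM against phosphatidylcholine. Ighv11-2 had 1235, 2220 and 4 counts in WT ML, 0, 196 and 0 in D542G ML, and 0, 2944 and 0 in Y541S ML, and 39 in D542G N 1. Igkv14-126 had 11845, 5927 and 0 counts in WT ML, 0, 1568 and 6 in D542G ML, and 0, 10618 and 0 in Y541S ML, with 552 in D542G N 1 and 1 in D542G N 2. Both reached 10 counts in the same 5 libraries (WT ML 1, WT ML 2, D542G ML 2, Y541S ML 2 and D542G N 1), and neither did in the 13 others. This pair was looked at after its values were seen, and bulk counts do not show which chains share a cell.

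In several N libraries 1 heavy and 1 kappa segment held nearly all V counts. D542G N 1 had all 39 heavy V counts in Ighv11-2 and 552 of 566 kappa V counts in Igkv14-126, with 565 counts of Ighm and 0 of any other class. Y541S N 1 had 336 of 356 heavy V counts in Ighv1-55 and 591 of 633 kappa V counts in Igkv4-53. WT N 1 had 56 of 58 heavy V counts in Ighv2-5 and 722 of 750 kappa V counts in Igkv12-46.

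The leading segments of these N libraries were compared with the ML library of the same number. Ighv2-5 and Igkv12-46 had 36 and 527 counts in WT ML 1, and Ighv2-5 had at most 2 counts in any other ML library, while Igkv12-46 had 20471 in Y541S ML 2. Ighv11-2 and Igkv14-126 were at 0 in D542G ML 1, and Ighv1-55 and Igkv4-53 at 0 in Y541S ML 1, which held 20 immunoglobulin counts in all. D542G N 2 was different, with 77 kappa V counts spread over 20 segments and Igkv12-46 leading with 15.

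**Figure D3:**
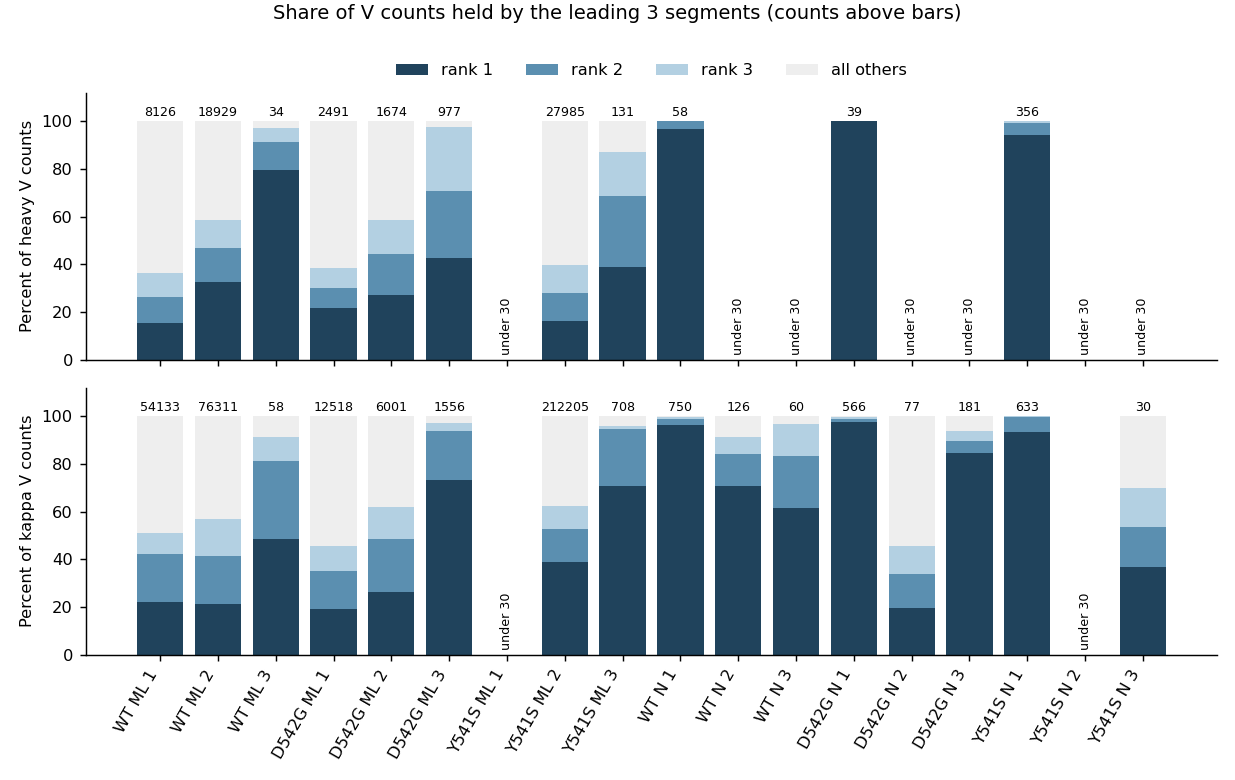
Percent of heavy (top) and kappa (bottom) V counts held by the 3 leading segments of each library, with the V counts above each bar; libraries with under 30 counts are not drawn. In WT N 1, D542G N 1 and Y541S N 1 the first segment holds 93.4 to 100% of either chain, against 15.2 to 79.4% of heavy and 19.2 to 73.1% of kappa V counts in the ML libraries drawn, and 19.5 to 84.5% of kappa V counts in the other N libraries.

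**Figure D4:**
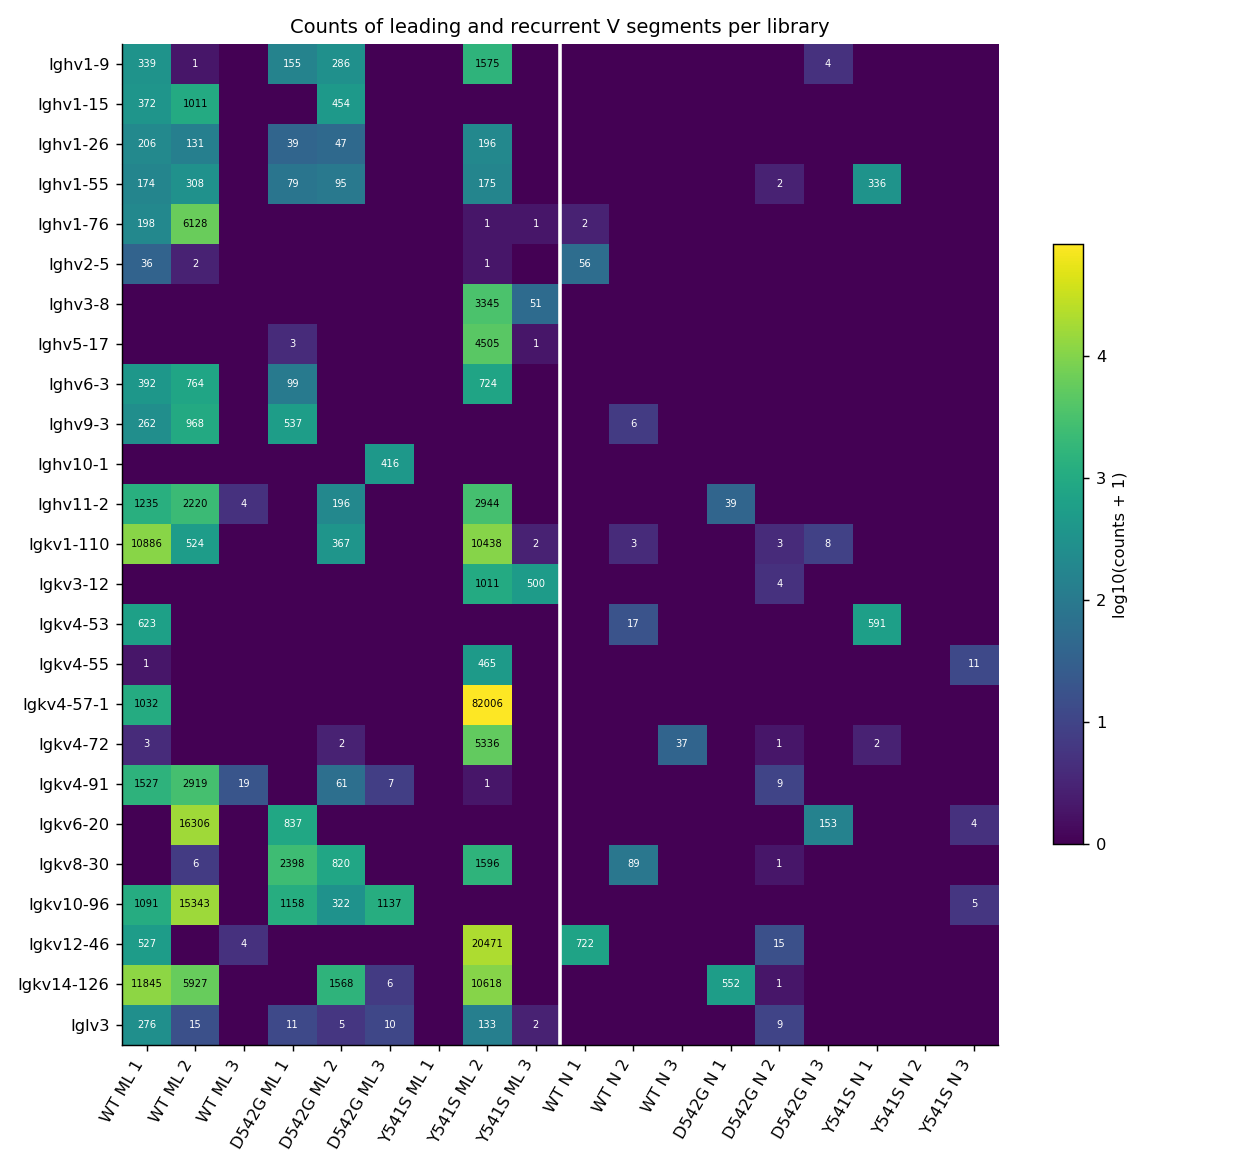
Counts of 25 V segments (those that led a library or reached 10 counts in at least 4 ML libraries) in the 18 libraries, coloured by log10(counts + 1) with each count above 0 written in its cell; the white line parts ML (left) from N (right). Most rows are filled in a few ML libraries only, and Ighv11-2 and Igkv14-126 are filled together in 5 libraries.

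The gates were then compared over all genes with 1 edgeR model of the 6 groups, the N to ML contrast taking the 3 genotypes with equal weight (9 libraries against 9). Of the 188 members 45 passed the filter on low counts and 143 did not. Of the 45, 36 passed through their ML values alone, so a difference between the gates is built into which members were tested, and the counts below are no support for one.

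Of the 45 members 25 were called (adjusted p under 0.05), all lower in N. Over all 18298 genes tested 13.6% were called lower in N, and 27.4% in either direction. The called members were 6 of 8 constant genes, 4 of 4 joining segments (Ighj1 to Ighj4) and 15 of 33 variable segments. The median log2 fold change was −7.37 over the 45 and −0.03 over all genes. Taken from mean CPM instead, with the N mean set to 3 counts per library for the 13 members at 0 in all N libraries, the median was −6.36.

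Ighm stood at 572.5 ± 851 CPM in ML and 19.2 ± 28.7 in N (SD, n = 9 each), a log2 fold change of −4.35 ± 1.502 (SE, edgeR adjusted p = 0.0434). It lay above the highest N library in 4 of 9 ML libraries. In the fit with the replicate number as a block it was not called (−2.04, adjusted p = 0.507), and over all alternatives tried the adjusted p was 0.00144 to 0.698.

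The switched and lambda constant genes had smaller p-values. The edgeR adjusted p was 0.00292 for Ighg2b, 0.00527 for Ighg2c, 0.00685 for Ighg1, 0.00694 for Iglc2 and 0.0255 for Igha. Mean CPM was 5200-fold higher in ML than in N for Ighg2b (189 against 0.0363), 9418-fold for Ighg1 (244 against 0.0259), 312-fold for Iglc2 (73.2 against 0.234) and 1801-fold for Igha (56.7 against 0.0315). These ratios rest on 9 to 89 N counts each, and several on Y541S ML 2. With the ML mean taken without that library, a setting added after the data were seen, they were 3447 for Ighg2b and 3273 for Ighg1. For Iglc2 and Igha they were 59.4 and 164. In the edgeR fit without that library Ighg1 and Igha lost their calls, while Ighg2b, Ighg2c and Iglc2 kept theirs. Ighg3 was not called (adjusted p = 0.152), with 79.5 CPM in ML and 0.133 in N.

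The remaining members among the 10 with the smallest p were 3 joining and 3 variable segments. Ighj2 had 2256 counts in ML and 1 in N (adjusted p = 0.00601), a ratio of 2870 with a counting interval of 515 to 113372. Ighj4 was 52.4-fold higher in ML (adjusted p = 0.0113) and Ighj1 324-fold (0.0159). Igkv1-110 had 22217 counts in ML and 14 in N (adjusted p = 0.00922), Iglv2 had 12100 and 5 (0.0172), and Ighv1-9 had 2356 and 4 (0.0184).

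The count of calls rested on few libraries. Without Y541S ML 2 it was 5, and without WT ML 1 or WT ML 2 it was 19 and 21. Leaving out the 3 ML libraries with the most immunoglobulin together left 0 of 75 tested members called by edgeR (1 at an unadjusted p under 0.05), with Ighm at 1.40 (adjusted p = 0.498). More members pass the filter there because the smallest group has 1 library. In the same way, leaving out WT ML 1, WT ML 2 and WT N 3 left 1 (Ighg1). Without WT N 3 alone it stayed at 25. Whichever single library was omitted, Ighg2b, Ighg2c, Ighj3 and Iglc2 stayed called.

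In the block fit, in which each N library is set against the ML library of the same number and genotype, 18 members were called, all lower in N, against 13.6% of all genes, and 17 of them were among the 25. Ighm, Ighj3, Ighj4, Iglc2, Ighv1-9, Ighv1-64, Ighv11-2 and Igkv14-126 lost their call. DESeq2 called 30, against 16% of all genes. In the fit without the block 15 tested members had a p above 0.99. Each of these was at 0 in all ML libraries of at least 1 genotype, and 0 of the 25 called members were.

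Within genotypes fewer members were called. In WT 1 was called, Igkv4-91 (1527, 2919 and 19 counts in ML and 0 in N, edgeR adjusted p = 0.0372), against 1.39% of all genes called lower. In D542G 0 were called by edgeR, against 4.49%, and in Y541S 0, against 2.73%. At an unadjusted p under 0.05 there were 31 in WT, 14 in D542G and 20 in Y541S.

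The block fit called 9 in WT, 7 in D542G and 8 in Y541S, all lower in N, where 2.14, 5.1 and 3.74% of all genes were called lower. Ighg1, Ighg2b, Ighg2c and Ighj2 were called in each of the 3. DESeq2 called 20, 14 and 16 lower, against 4.67, 8.86 and 5.73% of all genes, and 18 in Y541S in either direction. These counts do not compare the genotypes, so the difference itself was tested.

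By edgeR the change between gates was not shown to differ by genotype, while DESeq2 called some members. For D542G against WT, edgeR called 0 members (0.109% of all genes), with 2 at an unadjusted p under 0.05, and also 0 in the block fit (0.082% of all genes). DESeq2 called 4 (8.89% of the members tested, against 2.21% of all genes). For Y541S against WT, edgeR called 0 in either fit (0% of all genes), with 5 at an unadjusted p under 0.05 without the block. DESeq2 called 7 there (15.6% of the members tested, against 1.01% of all genes). Its largest log2 fold change was 47.3, for Igkv10-96, which had 5 counts in Y541S N 3 and 0 in all WT N and Y541S ML libraries.

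Genotypes were also compared within the ML gate, where the tools differed. Between D542G and WT, edgeR called 0 members (0% of all genes), with 7 at an unadjusted p under 0.05, and DESeq2 called 1 (0.601%). Between Y541S and WT, edgeR called 0 (0% of all genes), with 13 at an unadjusted p under 0.05, and DESeq2 called 5 (0.279%). The comparisons with WT share the same WT libraries. The replicates in the ML gate span from 0.475 to 12068 CPM.

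Genes of plasma cells were next set beside the immunoglobulin genes. Jchain, the chain that links IgM and IgA into polymers and that plasma cells express strongly, stood at 326, 592 and 0 CPM in the WT ML libraries, 70.1, 31.97 and 13.6 in those of D542G, and 0.0951, 1073 and 2.69 in those of Y541S. N libraries held 0 to 12.7 CPM. Its order over the ML libraries put the same 3 libraries on top as the immunoglobulin sum, and the same 6 above all N libraries. It was called lower in N (log2 fold change −5.89 ± 1.72, edgeR adjusted p = 0.0200).

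Mzb1, a chaperone of antibody assembly in the endoplasmic reticulum, stood at 18.2, 25.2 and 0.26 CPM in the 3 WT ML libraries, 3.72, 2.13 and 0.72 in those of D542G, and 0.14, 47.3 and 0.29 in those of Y541S. N libraries held 0 to 1.40 CPM. It was called lower in N (−4.44 ± 1.28, edgeR adjusted p = 0.0190). In the block fit neither Jchain (−5.40, adjusted p = 0.0977) nor Mzb1 (−3.14, 0.0915) was called, and without the 3 ML libraries richest in immunoglobulin their values were 2.33 (0.556) and −0.45 (0.877).

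Of the 20 genes of the plasma cell list, all tested, 5 were lower in N (Jchain, Mzb1, Eaf2, Sec11c and Ssr4), 1 was higher (Cd38) and 14 were not called, where 27.4% of all genes were called in either direction. The list's median was −0.43, and that of all genes −0.03. Ssr4 lost its call in 14 of 26 alternatives (adjusted p up to 0.180) and Cd38 in 16 (up to 0.228). Eaf2, an elongation factor partner, had a log2 fold change of −1.89 ± 0.33 (edgeR adjusted p = 0.000803) and Sec11c, a subunit of the signal peptidase, one of −1.17 ± 0.21 (0.00109). Tnfrsf17, the survival receptor BCMA, reached 4.53 CPM in Y541S ML 2 and 1.87 CPM in WT ML 1, with no N library over 0.329 CPM, and was not called (−4.77 ± 1.75, 0.0590).

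The transcription factors of the plasma cell state did not follow the immunoglobulin sum throughout. Irf4 stood at 9.91 CPM in Y541S ML 2 and 2.02 in WT ML 2 but 0.0240 in WT ML 1 (−1.13 ± 1.25, adjusted p = 0.547). Prdm1 (0.74 ± 0.43, 0.215), Xbp1 (−0.15 ± 0.22, 0.659) and Pou2af1 (−0.46 ± 1.09, 0.805) were not called, and neither were Sdc1 (0.61 ± 0.35, 0.209) and Derl3 (−0.59 ± 0.86, 0.661). Within ML, Pou2af1 and Derl3 were highest in the same 3 libraries as the immunoglobulin sum. WT ML 1, WT ML 2 and Y541S ML 2 held 7.73, 11.9 and 23.5 CPM of Pou2af1, against 0 to 1.03 in the other ML libraries. They held 4.32, 8.69 and 19.6 CPM of Derl3, against 0.513 to 1.95. In N, Pou2af1 reached 15.6 CPM (D542G N 3) and Derl3 66.8 CPM (Y541S N 2). Xbp1 (267 to 899 CPM) and Sdc1 (280 to 2015 CPM) were abundant in every library, and mammary epithelium expresses both. Summed over the 9 plasma markers, levels were therefore 826 to 2456 CPM in ML and 864 to 2569 CPM in N.

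B cell genes were low. Cd79a and Cd79b, the signalling chains of the B cell receptor, peaked at 6.45 and 8.41 CPM in Y541S ML 2 and were again highest in the same 3 ML libraries. Cd79a stood at 3.27, 3.71 and 0.0256 CPM in the WT ML libraries, 0.632, 0.408 and 0.703 in those of D542G, and 0.0238, 6.45 and 0.610 in those of Y541S, against 0 to 1.48 CPM in N. Neither was called (−1.43 ± 0.90, adjusted p = 0.257, and −2.47 ± 1.24, 0.152).

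Of the 20 genes of the B cell list 17 were tested and 0 called by edgeR (27.4% of all genes), with a median of −0.18. Pax5, the transcription factor that keeps B cell identity, reached at most 0.332 CPM in either gate, and Ms4a1 had no count in any library. Summed over the 6 B cell markers, levels were 0.0238 to 15.4 CPM in ML and 0 to 6.10 CPM in N. Cd74 (−0.63 ± 0.48, 0.354) and Ptprc, the leukocyte antigen CD45 (−0.65 ± 0.83, 0.606), were not called, and Ptprc reached at most 3.79 CPM.

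Among genes that rearrange or switch the segments none was called by edgeR. Rag1, Rag2, Dntt and Vpreb2 had no count. Of the 12 genes of this list 5 were tested and 0 called (27.4% of all genes).

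Of 16 genes that carry or bind antibody or attract plasma cells, 14 were tested, 4 were higher in N and 1 was lower. Over all genes tested 27.4% were called in either direction. Pigr, the receptor that moves IgA and IgM across the epithelium, was called lower in N (−3.26 ± 0.78, edgeR adjusted p = 0.00711), at 3.14 to 30.7 CPM in ML and 0.0594 to 37.2 CPM in N, the highest being Y541S N 2. Cxcl12, a chemokine that retains plasma cells and is also made by basal cells, was called higher (4.16 ± 0.41, 1.005e-05), at 119 to 1096 CPM in N against 9.18 to 61.4 in ML. The others called higher were Vcam1, Fcgr3 and Fcgr1, the last at no more than 2.29 CPM and at 0 in all D542G and Y541S ML libraries. Fcgrt, the neonatal Fc receptor (−0.34 ± 0.22, 0.282), and Ccl28, a chemokine for IgA plasma cells (−1.30 ± 1.39, 0.531), were not called.

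Genes listed for other leukocytes summed highest and lowest in the same ML libraries as the immunoglobulin genes. Their summed level was 557 CPM in Y541S ML 2, the highest of the 18 libraries, and 46.5 CPM in Y541S ML 1, the lowest. WT ML 1 and WT ML 2 held 147 and 214 CPM, within the 120.0 to 331 CPM of the N libraries. Cd74, the invariant chain of antigen presentation and part of that list, made 377 CPM in Y541S ML 2 and 16.0 CPM in Y541S ML 1. Of 23 tested genes of other leukocytes 3 were higher in N (Trbc2, Cma1 and Tpsb2) and 0 lower. The share called in either direction over all genes was 27.4%. T cell markers summed to 1.88 to 7.47 CPM in ML and 6.34 to 40.2 CPM in N. The sum in N was mostly Trbc2 (5.03 to 40.2 CPM), the only called gene of these 3 markers. Cd3e and Cd3g reached at most 0.377 and 1.28 CPM in N and were not called. Macrophage markers summed to 3.73 to 12.4 CPM in ML and 2.25 to 46.9 CPM in N. Epcam, which marks epithelium, was 1995 to 3080 CPM in ML and 491 to 1870 in N (−1.34 ± 0.23, 0.000759), and Esr1 was not called (−0.51 ± 0.55, 0.529). WT ML 1 and WT ML 2, with high immunoglobulin, also held the high Krt14 given above, while Y541S ML 2 held 159 CPM of it. The part of these genes in the immunoglobulin result was not tested.

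**Figure D5:**
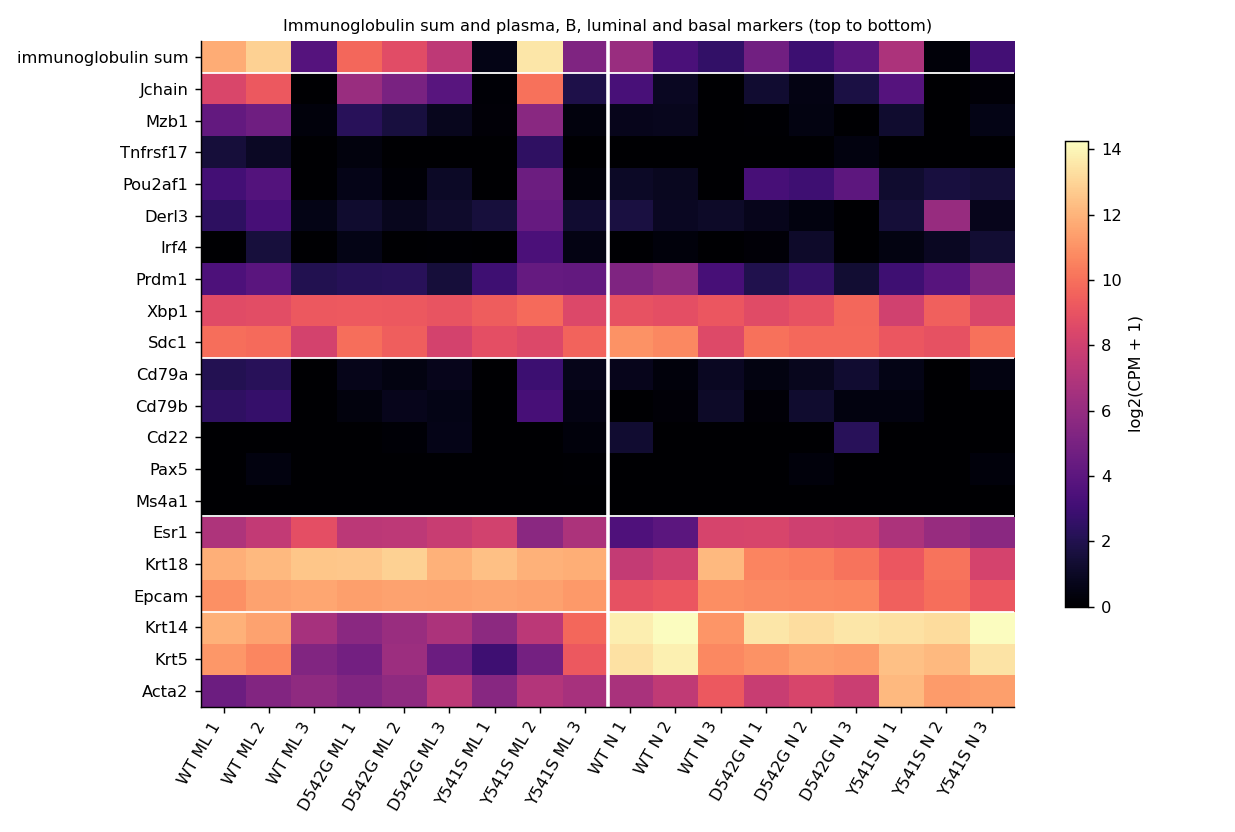
Level, as log2(CPM + 1), of the immunoglobulin sum and of 9 plasma cell, 5 B cell, 3 luminal and 3 basal markers in the 18 libraries; the white vertical line parts ML (left) from N (right). Jchain and Mzb1 are brightest in Y541S ML 2, WT ML 2 and WT ML 1, as the immunoglobulin sum is, while Xbp1 and Sdc1 are bright in every library and Ms4a1 is at 0.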

How the data were processed

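Counts per gene were read from the tables the authors deposited, 1 per library (0 columns were left unmapped). The deposited width and RPKM values were not used, since counts allow a count model. The genome build was GRCm38, per the submitters' processing notes. No aligner, counter, annotation or strand setting is named in the sources used here. Gene classes, symbols, coordinates and sequences came from GENCODE M21. P-values measure the spread between libraries, which the series design text calls biological replicates.

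Counts were analysed with edgeR 4.0.16 in R 4.3.3. Genes were kept by filterByExpr (minimum count 10, minimum total 15), which left 18298. TMM factors were 0.850 to 1.10, and 1 quasi-likelihood model of 6 group means was fitted (12 residual degrees of freedom). Adjusted p-values are Benjamini-Hochberg over all genes tested, and an adjusted p under 0.05 is a call. The test was tried on simulated counts first. Shares used libraries with at least 100 counts of that kind, with 95% Wilson intervals. DESeq2 1.42.0 was an alternative.

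Equal numbers were taken to pair ML and N libraries of a genotype in the block fit, while the main model uses no pairing. Deviations from the group means correlated at 0.166 to 0.553 in all 9 pairs (log2(CPM + 1), 10000 most expressed genes). With the N libraries of other numbers the ML libraries correlated at −0.455 to 0.192. WT ML 2 hardly differed, at 0.166 with its own number and up to 0.164 with another. The labels do not state a pairing.

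Members and gene lists were chosen with earlier results of these data known. Named were all constant genes with a count, the leading V segment of each ML library with at least 100 counts of the chain, the 5 heavy and 5 kappa segments with the highest mean ML level, the 10 called members with the smallest p, 23 set genes of other kinds, and up to 3 genes per list with the smallest p. Others, such as the leading segments of N libraries, Igkv4-91, recurrent V segments and calls lost under an alternative, were named after their values were seen. The values of 2 of the set genes are not reported here.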

Additional observations from a re-analysis of the deposited data

Results flagged for a closer look

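Immunoglobulin pseudogenes lie outside the set. Of 161 such genes, 37 had a count, with 2673 counts in ML and 2808 in N libraries. In Y541S ML 2 they summed to 846 counts, the most of any ML library, above the 88 to 559 of the N libraries. Ighv1-62 held 4800 of all pseudogene counts (87.6%), at 66 to 559 counts in every library of both gates, and so did not follow the immunoglobulin members. In Y541S ML 2 the rest came mainly from Igkv15-97 (284), Igkv4-65 (128) and Igkv4-73 (127), of which only Igkv4-73 had counts in other libraries, 7 in all. Groups of 3 libraries are too small for the test of a library that stands apart.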

How the results depend on the processing

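The number of members called lower in N over the 3 genotypes was 25, and 5 to 30 with each library left out in turn. It was 18 in the fit with the replicate number as a block, within 1.5 times of 25 as were all other settings but 3: without Y541S ML 2 (5), without the 3 ML libraries richest in immunoglobulin (0) and without WT ML 1, WT ML 2 and WT N 3 (1). The latter 2 were chosen after seeing the data and leave WT ML with 1 library, which is assumed to vary like the other groups. The block moved the counts within WT, D542G and Y541S from 1, 0 and 0 to 9, 7 and 8, and DESeq2 to 20, 14 and 18. DESeq2 also gave 1 (D542G against WT in ML), 5 (Y541S against WT in ML), 4 (change between gates, D542G) and 7 (Y541S). With each library left out the 3 counts within genotypes were 0 to 7, 0 to 1 and 0 to 2, and those between genotypes 0 to 0.

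Directions reversed for members that were not called or that rested on the 3 richest ML libraries. Without those 3, the log2 fold change was 1.40 for Ighm, 1.12 for Ighg3, 0.82 for Iglc2, 2.33 for Jchain, 0.999 for Tnfrsf17, 1.65 for Cd79a and 2.14 for Cd79b. Without WT ML 1, WT ML 2 and WT N 3 it was 0.56 for Cd79a and 0.048 for Cd79b. Ighd ran from −2.42 to 0.84 with each library left out, the highest without WT ML 3. The cause was not tested.

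Mean summed CPM with each library left out was 1726 to 5460 in WT ML, 292 to 624 in D542G ML, 19.2 to 6053 in Y541S ML, 7.13 to 39.7 in WT N, 10.2 to 20.2 in D542G N and 3.98 to 58.9 in Y541S N. The mean lambda share over ML libraries was 1.18% from V counts and 4.30% from V and constant counts, since Igkc is at 0. Depth limits the N gate: shares there rest on 108 to 3740 heavy constant counts.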
